A study of Mus musculus with 17 samples.

Results

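The comparison described here is between RNA bound to ribosomes at the endoplasmic reticulum (ER) in mouse embryonic stem cells that had received an siRNA against Nmd3 and the same fraction from cells that had received a scramble siRNA. It takes the ribosome-bound libraries by their labels, 3 after Nmd3 siRNA (replicates 1, 2 and 3) and 2 after scramble siRNA (replicates 2 and 3), 5 of the 17 libraries of the series. Scramble replicate 1 of this fraction is not analysed here. All cells, the scramble cells included, were of the E14Tg2a.4 line with a FLAG-TEV-AviTag on Rpl31, a protein of the large ribosomal subunit. The medium held serum and leukemia inhibitory factor, and the cells had received the fragments of ALIBi, a proximity biotinylation system that marked tagged ribosomes at the ER. The marked ribosomes were affinity purified in cycloheximide, which holds ribosomes on their mRNA, and their polyA RNA was sequenced. Whole-cell RNA of the lysates, and both fractions of cells that had received an siRNA against Gnl3, complete the series. The siRNA sequences, their dose and timing, and whether the tagged line is 1 clone are not given in the sources used here.

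Nmd3 is the adaptor that links the large (60S) ribosomal subunit to the nuclear export receptor Xpo1 (also called CRM1). In the cytoplasm the GTPase Lsg1 takes part in releasing Nmd3 from the new subunit, and Eif6, which keeps the subunits apart, is released by Sbds and Efl1. Ribosomes that make secreted and membrane proteins are brought to the ER by the signal recognition particle and dock on the Sec61 channel, so their mRNAs dominate ER-bound preparations. Rpl5 and Rpl11, when not built into 60S subunits, bind Mdm2 and thereby stabilise p53, which is the best known signal from disturbed 60S assembly to the cell.

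The 5 libraries held 16645525 to 20337987 gene counts and 23029 to 23605 genes with a count. Mitochondrially encoded RNA was 0.0204% to 0.0236% of gene counts in them, against 1.15% and 1.92% in the Nmd3 siRNA whole-cell libraries and 1.86% to 2.03% in the scramble whole-cell libraries that were compared. The pluripotency genes Pou5f1, Nanog, Sox2 and Zfp42 were all abundant in both groups. Nmd3 siRNA replicate 2 stood apart from its own group. Chi-square per gene was 8.59 between it and replicate 1 and 10.2 between it and replicate 3, while replicates 1 and 3 gave 3.14 and the scramble libraries 2.43, with 1 as the level of sampling noise. Leaving it out lowered the fitted spread between replicates (the biological coefficient of variation) from 0.0649 to 0.0413. Levels below are TMM-scaled counts scaled to the library total (CPM). Differences are log2 fold changes of Nmd3 siRNA over scramble with their standard error (SE) from edgeR's quasi-likelihood test, and a gene is called at a Benjamini-Hochberg adjusted p under 0.05 over all genes tested.

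Nmd3 mRNA on ER ribosomes held 25.2, 24.7 and 25.2 CPM in the Nmd3 siRNA libraries, against 124.5 and 119.7 CPM in the scramble libraries. The 3 targeted libraries lay close together and far below both scramble libraries. The fall was 4.88-fold, a log2 change of -2.29 (SE 0.06, edgeR adjusted p = 2.44e-20). Gnl3 siRNA left Nmd3 at 123.7, 119.0 and 119.1 CPM. In whole-cell RNA Nmd3 held 43.2 and 43.5 CPM after Nmd3 siRNA, against 152.6, 155.6 and 149.5 CPM after scramble siRNA, a log2 change of -1.81 (SE 0.07, edgeR adjusted p = 7.97e-19). The decrease on ER ribosomes exceeded that in whole-cell RNA by 0.47 on the log2 scale (SE 0.09), and the test of this difference did not pass after adjustment (edgeR adjusted p = 0.0765).

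The partners of Nmd3 in export and release were not called. Xpo1 held 436.8, 432.2 and 465.8 CPM after Nmd3 siRNA, against 459.9 and 455.9 CPM after scramble siRNA. Lsg1 held 127.0, 153.8 and 129.7 CPM, against 131.8 and 131.9 CPM in scramble libraries, and the value above the others came from Nmd3 siRNA replicate 2. Eif6 (log2 change -0.03, SE 0.06), Sbds (0.02, SE 0.06) and Efl1 (-0.02, SE 0.08) gave overlapping groups. Of 24 tested genes of 60S export and cytoplasmic maturation, Nmd3 was the 1 called gene. The Gnl3 mRNA, which encodes a nucleolar GTPase of 60S assembly, held 164.2, 269.5 and 179.2 CPM, against 171.1 and 176.9 CPM in scramble libraries (log2 change 0.23, SE 0.23, edgeR adjusted p = 0.774). Its 1 high value was again replicate 2, and without that replicate the change was -0.02. Gnl3 overlaps Pbrm1 on the opposite strand. The tagged Rpl31 gave overlapping groups (-0.02, SE 0.05).

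**Figure D1:**
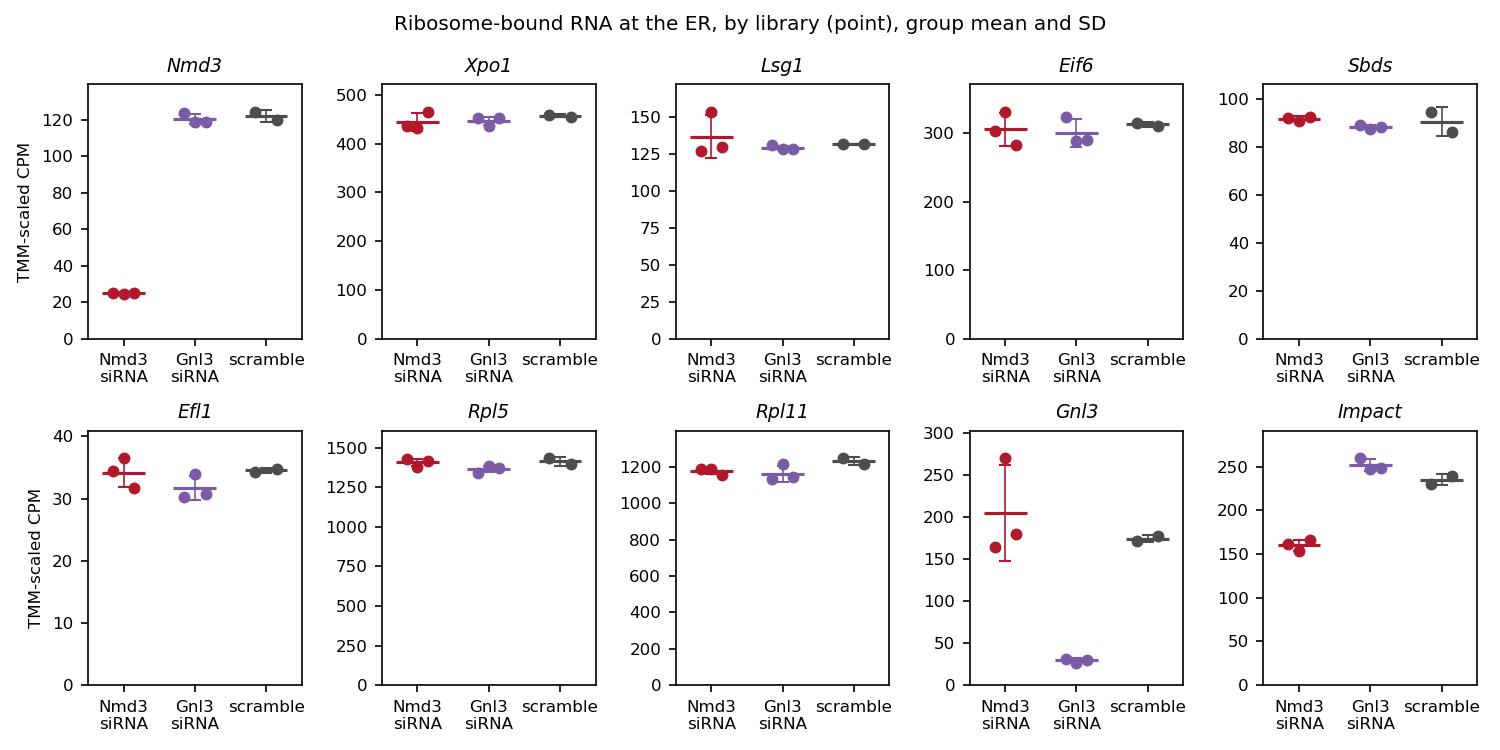
TMM-scaled CPM on ER ribosomes of Nmd3, 8 genes of 60S export, release and assembly, and Impact, with 1 point per library, the group mean as a line and the SD as a bar, for Nmd3 siRNA, Gnl3 siRNA and scramble. Nmd3 sits near 25 CPM in all 3 Nmd3 siRNA libraries, and Impact is the 1 other gene drawn that passes the test, with all 3 Nmd3 siRNA libraries below both scramble libraries.

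Of 17632 genes tested, 206 were called between the groups (1.17%), 115 higher after Nmd3 siRNA (0.652% of genes tested) and 91 lower (0.516%). An unadjusted p under 0.05 was found for 2050 genes. The changes were small. The median absolute log2 change of the called genes was 0.34, 38 of them exceeded 0.5 and 4 exceeded 1. Of the 206 genes, 197 were also called without Nmd3 siRNA replicate 2, when 366 genes were called in all. The count rested on both scramble libraries, since 25 genes were called without scramble replicate 2 and 23 without scramble replicate 3. It also fell to 86 when the Gnl3 siRNA libraries were left out of the fit, which also changed the genes tested to 17227.

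Across the 12 alternative settings, 13 genes were called every time. The lower ones were Nmd3, Mroh1, Prkar2a, Impact, Mrpl36, Lef1, Mt1, Mt2, Gm45774, Cd24a, Stmn1 and Mlf2, and the higher one was Cmtm6. The plot of fold change against level shows how far Nmd3 stood from every other called gene of its abundance.

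**Figure D2:**
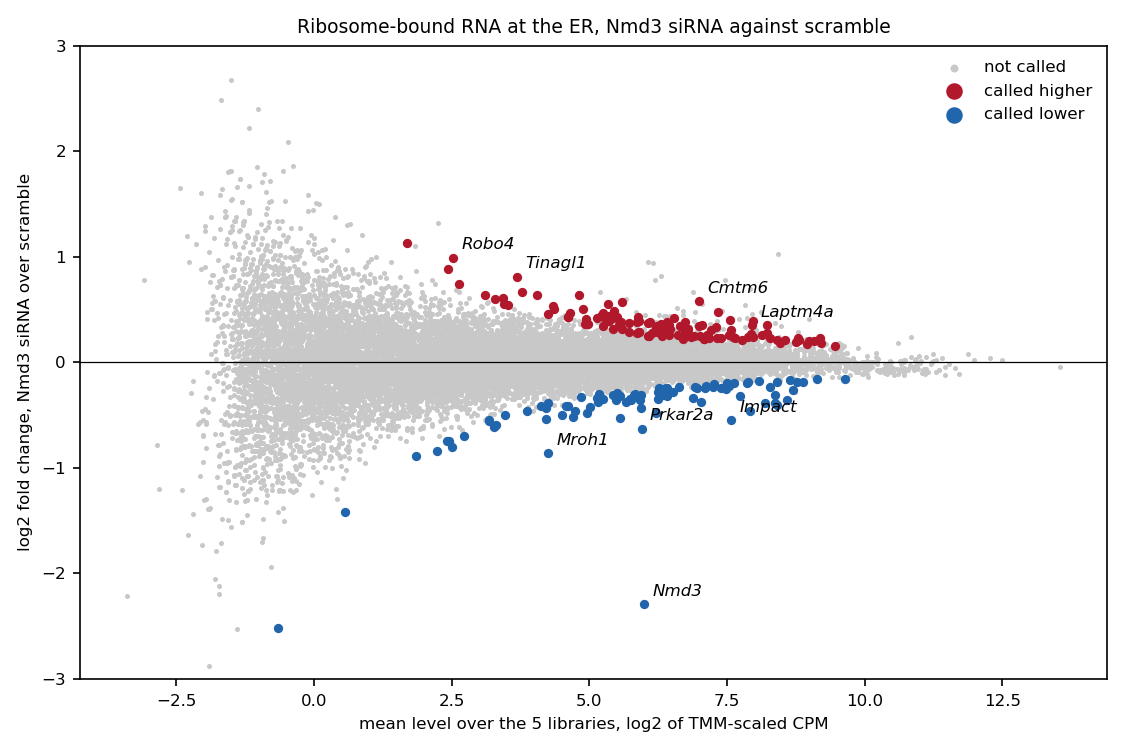
Log2 fold change of Nmd3 siRNA over scramble on ER ribosomes (y axis) against the log2 of the mean level over the 5 libraries (x axis) for each gene tested, with the 115 genes called higher and the 91 called lower in colour. 1 gene that was not called lies beyond the axis limit of 3. Nmd3 is alone near -2.29 at its level, and most other called genes lie within 0.5 of 0.

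Among the decreases, the clearest after Nmd3 was in Impact, which encodes an inhibitor of the activation of the eIF2 alpha kinase Gcn2. Impact held 161.5, 153.4 and 165.6 CPM in the Nmd3 siRNA libraries, against 230.5 and 239.5 CPM in scramble libraries. The highest Nmd3 siRNA value lay well under the lower scramble value. The change was -0.55 (SE 0.05, edgeR adjusted p = 9.18e-08), a change of -31.9%. In whole-cell RNA Impact fell as well, to 190.2 and 190.3 CPM after Nmd3 siRNA, against 250.3, 246.7 and 245.9 CPM after scramble siRNA (-0.38, edgeR adjusted p = 0.000511). The Gnl3 siRNA libraries held 259.6, 246.8 and 248.4 CPM on ER ribosomes, and the direct comparison of Nmd3 with Gnl3 siRNA gave -0.65 (edgeR adjusted p = 2.15e-10). The kinase Gcn2 (Eif2ak4) was not called (-0.11, SE 0.10), nor were the other 18 tested genes of eIF2 kinases and their control.

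Prkar2a, a regulatory subunit of protein kinase A, held 48.6, 49.2 and 53.9 CPM after Nmd3 siRNA, against 77.6 and 79.0 CPM after scramble siRNA (-0.63, SE 0.06, edgeR adjusted p = 1.11e-06). It fell in whole-cell RNA too (-0.43, adjusted p = 0.000511). Mroh1 held 13.8, 16.6 and 12.5 CPM, against 25.8 and 26.1 CPM after scramble siRNA (-0.86, SE 0.11), with -0.69 in whole-cell RNA. Mroh1 overlaps Bop1, a 60S assembly factor, on the opposite strand, and Bop1 was not called (0.04, SE 0.07). Mrpl36, a protein of the mitochondrial large ribosomal subunit, held 39.0, 42.0 and 38.6 CPM, against 58.6 and 56.6 CPM after scramble siRNA (-0.53, SE 0.07). It overlaps Ndufs6 on the opposite strand, which was not called (-0.06). All 3 genes stayed apart from the Gnl3 siRNA libraries as well, with log2 changes of Nmd3 over Gnl3 siRNA of -0.55 for Prkar2a, -0.76 for Mroh1 and -0.41 for Mrpl36.

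The other genes with the largest decreases follow. Antxr1, an anthrax toxin receptor and collagen binder, held 4.38, 5.09 and 3.66 CPM after Nmd3 siRNA, against 7.49 and 7.81 CPM after scramble siRNA (-0.80, SE 0.17). Zhx1, a zinc finger homeobox factor, changed by -0.75 (SE 0.17) and Tmod2, a tropomodulin that caps actin filaments, by -0.75 (SE 0.19). The remaining decreases by size were 2610528J11Rik (-0.70), Adamts10, a secreted metalloprotease (-0.61), Crabp2, which carries retinoic acid (-0.59), Csf2ra, a cytokine receptor chain (-0.56), Rcan3, a calcineurin regulator (-0.54), Arhgdig, which lies opposite Rgs11 (-0.52), and Lima1, an actin binder (-0.50). Both Lima1 and 2610528J11Rik were low after Gnl3 siRNA too. Lima1 held 19.7, 20.3 and 18.7 CPM after Nmd3 siRNA and 19.2, 20.1 and 19.5 CPM after Gnl3 siRNA, against 26.0 and 29.3 CPM after scramble siRNA. For 2610528J11Rik the Nmd3 siRNA libraries held 5.71, 5.64 and 4.52 CPM, the Gnl3 siRNA libraries 5.48, 6.35 and 4.57 CPM, and the scramble libraries 8.80 and 8.39 CPM. The direct test of Nmd3 against Gnl3 siRNA called neither (adjusted p = 0.994 for Lima1 and 0.895 for 2610528J11Rik). That edgeR test also did not call Tmod2 (adjusted p = 0.506), Adamts10 (0.448), Crabp2 (0.0714) or Rcan3 (0.0701). It called Antxr1 (0.00247), Zhx1 (0.0296), Csf2ra (0.0363) and Arhgdig (0.000704).

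A pair of neighbouring genes on chromosome 8, Mt1 and Mt2, fell together. They encode metallothioneins, small cysteine-rich proteins that bind zinc and copper and whose transcription is driven by the metal-sensing factor MTF1 through metal response elements. They were singled out after their values had been seen. Mt1 held 217.8, 219.9 and 194.0 CPM after Nmd3 siRNA, against 281.4 and 297.7 CPM after scramble siRNA (-0.46, SE 0.06, edgeR adjusted p = 0.000313). Mt2 held 304.8, 292.9 and 282.4 CPM, against 382.9 and 384.2 CPM after scramble siRNA (-0.39, SE 0.04, edgeR adjusted p = 1.09e-05). Both also fell in whole-cell RNA, by 0.34 and 0.38 on the log2 scale. Gm45774 lies opposite Mt2 and carried nearly the same values (319.2, 291.7 and 287.8 CPM, against 390.7 and 401.6 CPM), so their counts cannot be told apart without the strand setting of counting. After Gnl3 siRNA, Mt1 stood at 214.5, 233.6 and 203.7 CPM and Mt2 at 266.1, 275.7 and 276.8 CPM, close to the Nmd3 siRNA libraries. The 250 bases before the RefSeq start of each gene (build GRCm38.p6, plus strand) are shown because the pair moved together. They are chr8:94178839-94179088 for Mt1 and chr8:94172368-94172617 for Mt2. Capitals mark matches on either strand to TGCACNC or TGCGCNC, the cores of the metal response element.
Mt1: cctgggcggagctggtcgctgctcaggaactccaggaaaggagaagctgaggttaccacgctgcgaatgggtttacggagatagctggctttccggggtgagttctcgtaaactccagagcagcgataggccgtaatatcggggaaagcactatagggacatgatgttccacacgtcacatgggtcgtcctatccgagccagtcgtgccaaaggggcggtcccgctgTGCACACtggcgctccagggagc
Mt2: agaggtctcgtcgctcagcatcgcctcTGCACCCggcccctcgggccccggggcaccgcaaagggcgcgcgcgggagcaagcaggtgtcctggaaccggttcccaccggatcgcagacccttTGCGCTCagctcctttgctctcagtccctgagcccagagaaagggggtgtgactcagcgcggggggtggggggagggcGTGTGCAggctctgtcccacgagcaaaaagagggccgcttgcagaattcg
Mt1 had 1 match, 23 bases before the start, and Mt2 had 3, at 223, 128 and 50 bases. The same 250-base window held at least 1 match in 21.5% of 32536 RefSeq promoter windows and 2 or more in 5.21%. Sequence outside these windows was not searched, so the matches do not count the elements of either whole promoter. The matches describe these letters and were not tested as binding sites.

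Among the increases, Cmtm6, a transmembrane protein that keeps PD-L1 at the cell surface, gave the smallest adjusted p. Cmtm6 held 147.4, 142.1 and 153.1 CPM after Nmd3 siRNA, against 98.7 and 98.1 CPM after scramble siRNA. All 3 Nmd3 siRNA libraries lay above 140 CPM and both scramble libraries below 100 CPM. The rise was 49.9% (log2 change 0.58, SE 0.05, edgeR adjusted p = 2.2e-07), and Cmtm6 also rose in whole-cell RNA (0.38, adjusted p = 0.0102). The Gnl3 siRNA libraries, at 127.9, 133.5 and 134.7 CPM, lay between these groups.

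The largest increases by fold were in genes of low to moderate level, most of them for secreted or membrane proteins. Robo4, a guidance receptor of endothelium, held 5.95, 9.42 and 6.05 CPM after Nmd3 siRNA, against 3.75 and 3.48 CPM after scramble siRNA (0.99, SE 0.22). Its highest value was in replicate 2, and without that replicate the change was 0.73. Tinagl1, a secreted basement membrane protein, held 14.7, 17.7 and 14.0 CPM, against 9.07 and 8.60 CPM after scramble siRNA (0.81, SE 0.13). Htra1, a secreted serine protease, held 30.1, 34.1 and 34.1 CPM, against 19.4 and 22.6 CPM after scramble siRNA (0.64, SE 0.10). Mme, the cell surface peptidase neprilysin, held 41.9, 44.5 and 53.3 CPM, against 33.1 and 30.5 CPM after scramble siRNA (0.55, SE 0.09). Other secretory or membrane genes were Tek, the angiopoietin receptor (0.67), Cpe, a peptidase of the secretory granule (0.61), Ptges, a prostaglandin E synthase (0.60), Aqp3, a water and glycerol channel (0.57), Lyn, a Src-family kinase held at membranes (0.55), and Plet1, a placental surface protein (0.53). Genes for cytosolic or mitochondrial proteins included Isca2, an iron-sulfur cluster assembly protein of mitochondria (0.64), Nuak1, a kinase related to AMPK (0.64), and Dennd1a, an exchange factor for Rab35 (0.54).

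For the 15 largest increases the Gnl3 siRNA libraries also lay above the scramble libraries, as the plot of the largest changes shows by library. Tek held 14.5, 18.1 and 15.8 CPM after Nmd3 siRNA and 21.1, 18.1 and 17.9 CPM after Gnl3 siRNA, against 10.2 and 10.1 CPM after scramble siRNA. Among the 15, the direct test of Nmd3 against Gnl3 siRNA called Aqp3 alone (log2 difference 0.32, edgeR adjusted p = 0.036). Because both comparisons with scramble use the same 2 scramble libraries, a shift in those libraries and a response common to both siRNAs cannot be told apart.

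**Figure D3:**
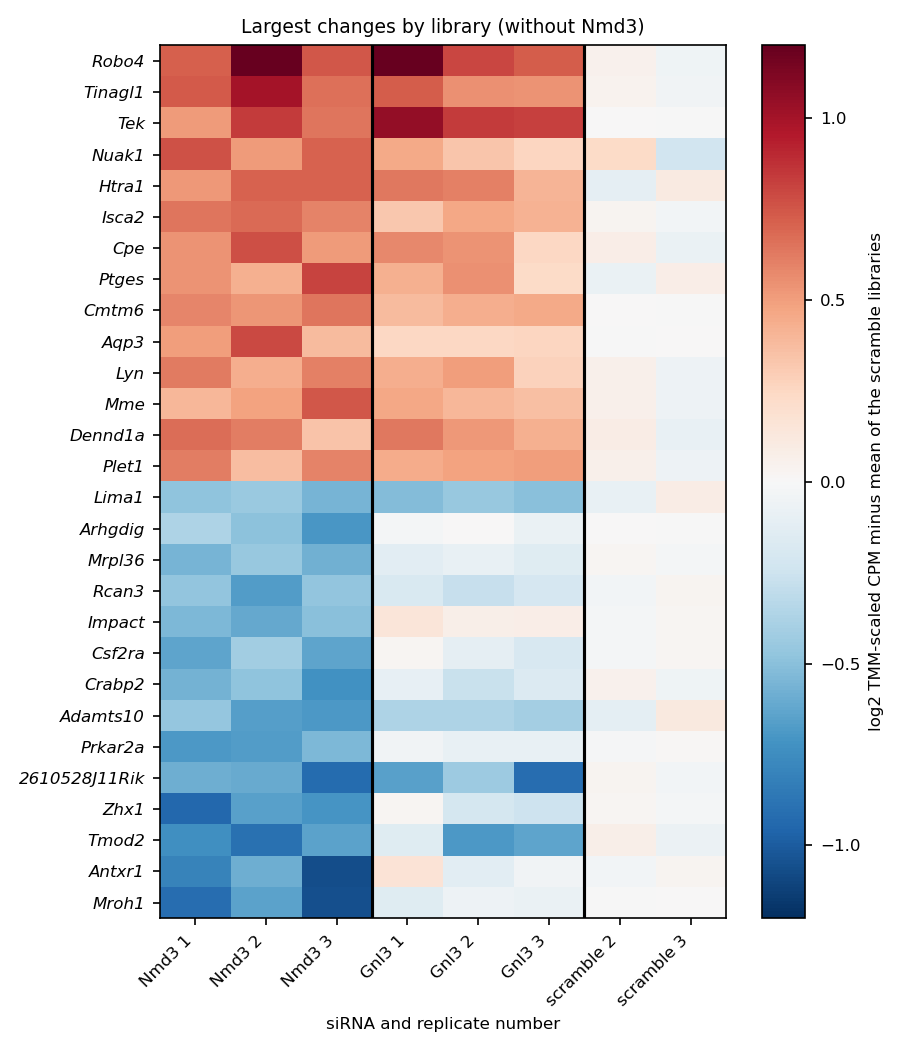
Log2 TMM-scaled CPM minus the mean of the scramble libraries (colour) for 14 of the 15 largest increases and, Nmd3 left out, the 14 next largest decreases among called genes (rows), in each Nmd3 siRNA, Gnl3 siRNA and scramble library (columns). Impact is low in the Nmd3 siRNA libraries and slightly high in the Gnl3 siRNA libraries, while Lima1 and the 14 increases shift the same way in both.

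The genes that rose were mostly mRNAs enriched on ER ribosomes, while those that fell were so about as often as genes in general. To measure ER enrichment in libraries that are in neither compared group, the log2 ratio of ribosome-bound to whole-cell CPM was taken from the Gnl3 siRNA cells (3 ribosome-bound and 2 whole-cell libraries). The ribosome-bound Gnl3 libraries were in the fit that made the calls, and for the largest increases they also lay above scramble. A gene that both siRNAs raised more on ER ribosomes than in whole-cell RNA has a raised ratio, so the measure is not independent of the calls. The median of this ratio was 0.79 for ER chaperone genes, 0.91 for lysosomal genes and -6.51 for mitochondrially encoded mRNAs. It was also above 0 for large-subunit (0.34) and small-subunit (0.35) ribosomal protein genes and nuclear-encoded respiratory chain genes (0.41). A ratio above 0 therefore does not mark mRNAs of secreted and membrane proteins alone. The 115 genes called higher after Nmd3 siRNA had a median enrichment of 0.72 (quartiles 0.20 and 1.07), and 94 of them (81.7%) were above 0. The 91 genes called lower had a median of 0.02 (quartiles -0.22 and 0.33), and 48 of them (52.7%) were above 0. Over all 17632 genes tested the median was 0.06 (quartiles -0.26 and 0.36), with 55.8% above 0. A ratio above 0.5 was found for 60.9% of the genes called higher, 15.4% of those called lower and 16.2% of all genes tested. With genes ranked by this enrichment into 5 bins of like size, the top bin held 75 of the 115 increases and 15 of the 91 decreases. Without Nmd3 siRNA replicate 2 the share above 0 was 80.3% of 198 genes called higher and 57.1% of 168 called lower. Among genes of at least 5 CPM it was 81.6% of those called higher, 54% of those called lower and 55.7% of all genes. The median log2 change over all genes of the top bin was 0.05, against 0.00 for all genes tested.

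**Figure D4:**
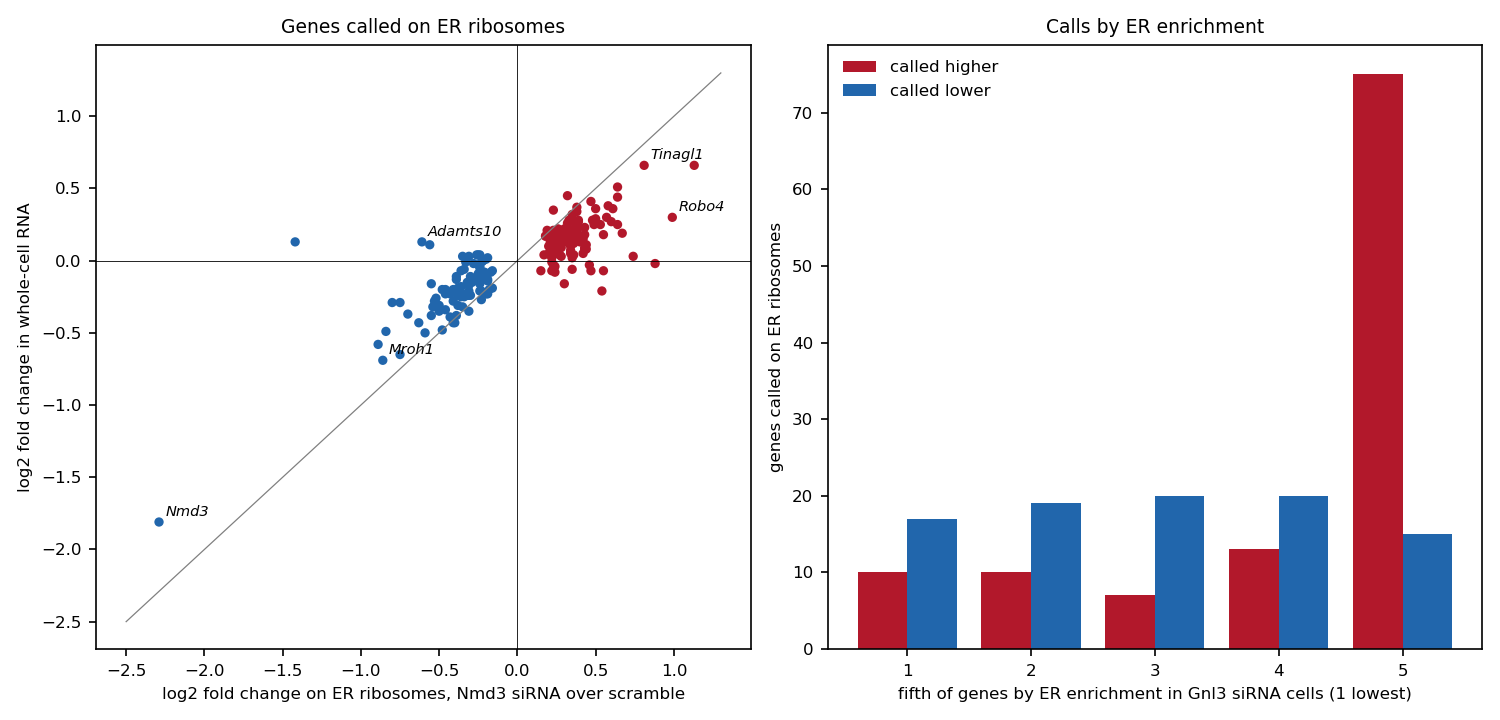
Left, log2 fold change of Nmd3 siRNA over scramble in whole-cell RNA (y axis) against that on ER ribosomes (x axis) for the genes called on ER ribosomes and tested in both, with the line of equal change. Right, number of genes called higher and lower on ER ribosomes in each of 5 bins of genes by ER enrichment in Gnl3 siRNA cells. Most points lie nearer 0 in whole-cell RNA, and 75 of the 115 increases fall in the top bin.

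The lists of secretory pathway genes had medians above that of all genes, by small amounts. The median log2 change was 0.13 over 50 lysosomal genes, 0.11 over 50 genes of the Golgi and glycosylation, 0.12 over 60 cell surface receptors and adhesion genes, 0.13 over 50 solute carriers, 0.17 over 49 secreted and matrix genes and 0.13 over 45 ER chaperones and unfolded protein response genes, against 0.00 over all genes tested. Nmd3 siRNA replicate 2 carried much of this. Taken library by library in replicates 1, 2 and 3, the median of the lysosomal genes was 0.07, 0.21 and 0.10 above the scramble mean, and that of the cell surface genes was 0.04, 0.28 and 0.08. Without replicate 2 the medians were 0.08 for lysosomal, 0.05 for Golgi, 0.06 for cell surface, 0.06 for solute carrier, 0.06 for secreted and 0.07 for chaperone genes. With all 3 replicates, the medians of Nmd3 over Gnl3 siRNA were smaller than those over scramble. They were 0.04 for lysosomal, 0.05 for Golgi and -0.02 for cell surface genes. For solute carrier, secreted and chaperone genes they were 0.05, 0.06 and 0.07, against 0.01 over all genes.

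The called members of these lists that are named here kept their direction without replicate 2. Against 1.17% of all genes tested, 8% of the lysosomal genes, 10.2% of the secreted and matrix genes and 6.67% of the cell surface genes were called. All lists, here and below, were written with earlier results of these data known, so such shares describe the lists and are not independent support. Of the lysosomal genes 4 rose and none fell. Laptm4a, a lysosomal membrane protein, held 253.6, 295.5 and 264.9 CPM after Nmd3 siRNA, against 222.6 and 203.5 CPM after scramble siRNA (0.35, SE 0.06, edgeR adjusted p = 0.00138). The others were Hexa, a hexosaminidase subunit (0.27), Ctsa, a carboxypeptidase (0.24), and Lamp1, a major lysosomal membrane glycoprotein (0.15). Of the secreted and matrix genes Tinagl1, Igfbp3, Spp1 and Sparc rose and Trh fell. Spp1, which encodes osteopontin, held 594.4, 605.1 and 651.7 CPM, against 532.3 and 521.3 CPM after scramble siRNA (0.23, SE 0.05). Trh, the precursor of thyrotropin-releasing hormone, held 293.3, 311.8 and 304.3 CPM, against 378.2 and 372.2 CPM after scramble siRNA (-0.31, SE 0.05). Trh was lower still after Gnl3 siRNA (213.7, 235.8 and 230.0 CPM). Of the cell surface genes 3 rose, among them Cd81 and Cd9, and Cd24a fell to 54.6, 52.3 and 55.2 CPM, against 73.5 and 71.6 CPM after scramble siRNA (-0.43, SE 0.06). Of the solute carriers 4% were called, and both the zinc importer Slc39a4 (0.42) and the copper importer Slc31a1 (0.30) rose. The galactosyltransferase B4galt5 (0.25) was the 1 called Golgi gene. None of the ER chaperones was called, and the chaperone Hspa5 (BiP) held 592.5, 736.8 and 655.3 CPM, against 586.1 and 589.6 CPM after scramble siRNA (0.17, adjusted p = 0.447). None of 42 genes of the signal recognition particle and translocon was called either (median 0.07).

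Genes of cholesterol and fatty acid synthesis and uptake, which are driven by the ER-anchored SREBP factors, gave 4 calls among 32 tested, all higher (12.5%, against 0.652% of all genes called higher). Of the 32 changes 30 were above 0 (93.8%), against 50.5% over all genes, 88.9% of ER chaperone genes and 84% of lysosomal genes. The median was 0.16, and 0.10 without replicate 2. Taken by library in replicates 1, 2 and 3 it was 0.07, 0.26 and 0.13 above the scramble mean. Msmo1, a sterol methyl oxidase, held 75.1, 75.9 and 74.6 CPM after Nmd3 siRNA, against 58.5 and 56.9 CPM after scramble siRNA (0.38, SE 0.07, edgeR adjusted p = 0.00191). Insig1, which retains the SREBP escort Scap in the ER, held 96.5, 93.9 and 97.0 CPM, against 75.8 and 74.8 CPM (0.35, SE 0.06, edgeR adjusted p = 0.00131). Scd1, a stearoyl-CoA desaturase, rose by 0.34. For Insig1 and Msmo1 the direct test of Nmd3 against Gnl3 siRNA gave differences of -0.07 (SE 0.05) and 0.02 (SE 0.06), neither called.

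**Figure D5:**
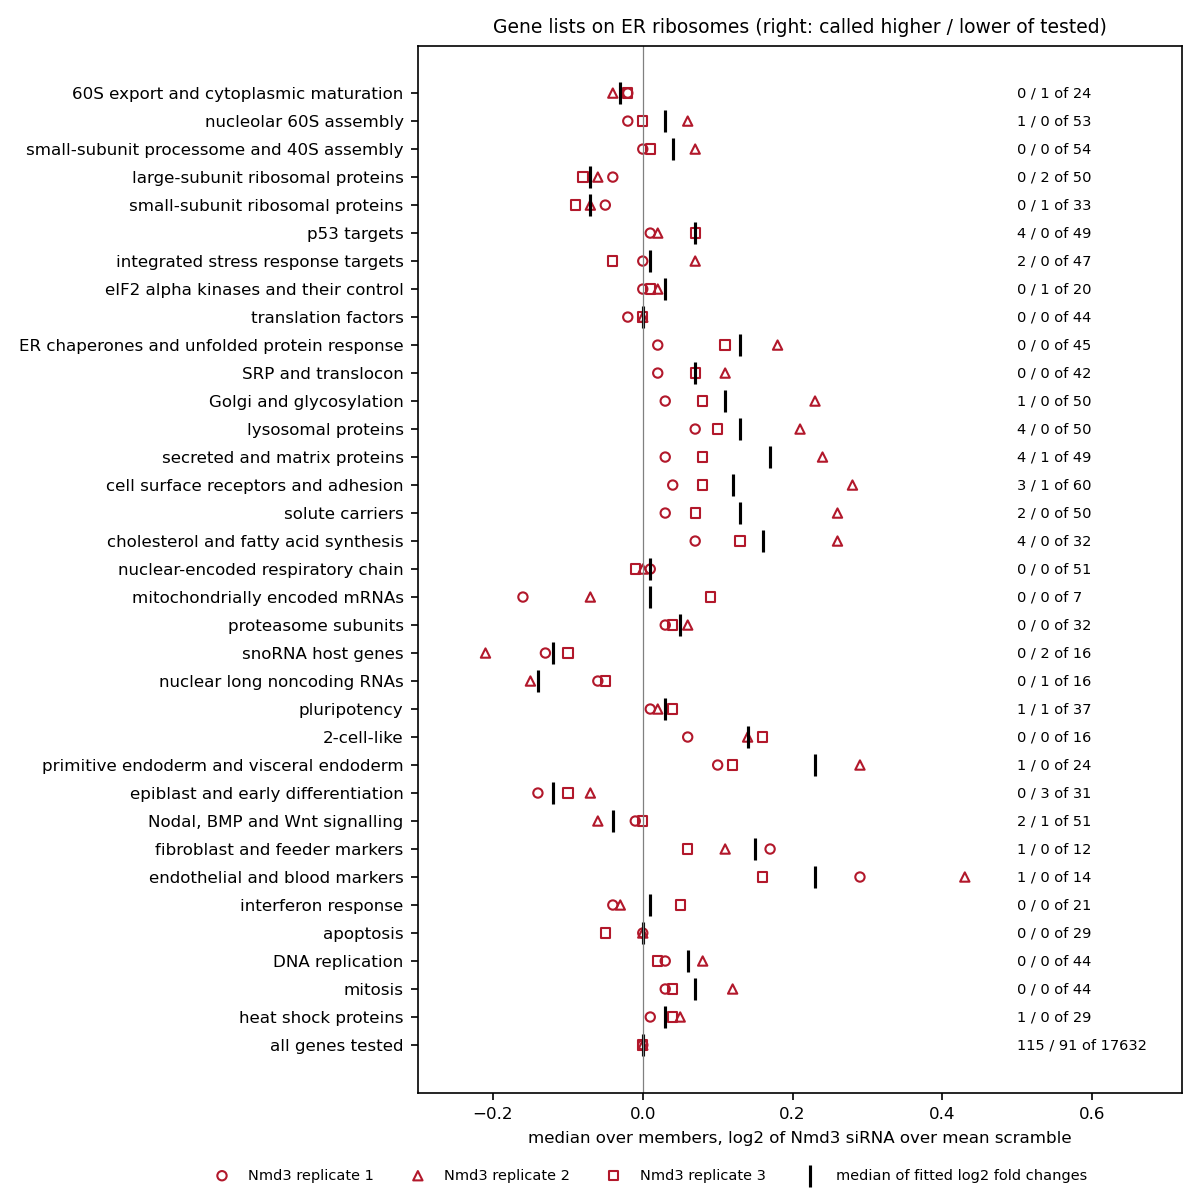
Median log2 level relative to the mean of the scramble libraries over the tested members of each gene list (rows), for each Nmd3 siRNA library (open symbols), with the median of the fitted log2 fold changes (bar). The numbers of members called higher and lower of those tested stand at the right. Replicate 2 lies to the right of replicates 1 and 3 in the secretory pathway lists, and both ribosomal protein lists lie left of 0 in all 3 libraries.

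mRNAs for ribosomal proteins lay slightly lower. Of 50 large-subunit genes 4 had a change above 0 (8%) and the median was -0.07. Of 33 small-subunit genes 1 had a change above 0 (3.03%) and the median was -0.07. Over all genes 50.5% had a change above 0 and the median was 0.00. Without replicate 2 the medians were -0.06 for large-subunit and -0.07 for small-subunit genes. Of the large-subunit genes 4% were called and of the small-subunit genes 3.03%, against 1.17% of all genes tested. The called members were Rpl22l1 (132.5, 126.7 and 132.1 CPM, against 151.2 and 152.6 CPM after scramble siRNA, change -0.22), Rpl13a (-0.16) and Rps27 (-0.19). These genes have near-identical copies, so their counts are uncertain. In whole-cell RNA the median was -0.00 for large-subunit and -0.01 for small-subunit genes. Against the Gnl3 siRNA libraries on ER ribosomes these genes were not lower, with medians of 0.04 and 0.03, and 0.01 over all genes. Rpl5 held 1427, 1382 and 1417 CPM, against 1435 and 1396 CPM after scramble siRNA, and Rpl11 held 1188, 1188 and 1157 CPM, against 1248 and 1218 CPM, neither called. Among 53 genes of nucleolar 60S assembly Nop16 alone was called, with 116.0, 116.8 and 118.6 CPM after Nmd3 siRNA, against 88.8 and 91.7 CPM after scramble siRNA (0.38, SE 0.05, edgeR adjusted p = 0.000287). Nop16 rose as much in whole-cell RNA (0.37, adjusted p = 0.0117). None of 54 genes of the small-subunit processome and none of 44 translation factors was called.

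Trp53 held 476.7, 505.9 and 486.8 CPM after Nmd3 siRNA, against 485.1 and 497.3 CPM after scramble siRNA. Its negative regulator Mdm2 (0.03, SE 0.06) and the cell cycle inhibitor Cdkn1a (-0.07, SE 0.07) were not called. Of 49 p53 targets 4 rose and none fell (8.16% called, against 1.17% of all genes tested), with a median of 0.07. Those 4 were Perp, a membrane protein of desmosomes (111.0, 114.9 and 120.8 CPM, against 97.0 and 90.7 CPM after scramble siRNA, change 0.30), Igfbp3, a secreted binder of insulin-like growth factors (0.42), Abhd4, a lipase (0.37), and Plk3, a polo-like kinase (0.34). Mdm2 and Perp were both lower than after Gnl3 siRNA (differences -0.32 and -0.45, edgeR adjusted p = 0.00254 and 4.7e-06), as were Ccng1 (-0.27) and Phlda3 (-0.35), which did not pass the test against scramble. None of 29 apoptosis genes was called.

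The integrated stress response, in which eIF2 kinases raise Atf4 translation, showed 2 calls among 47 targets and a median of 0.01. The share called was 4.26%, against 1.17% of all genes tested. Asns, asparagine synthetase, held 249.3, 269.3 and 232.4 CPM after Nmd3 siRNA, against 217.8 and 207.0 CPM after scramble siRNA (0.24, SE 0.06), and Cth, cystathionine gamma-lyase, rose by 0.26 (SE 0.06). Atf4 (0.02, SE 0.05), Ddit3 (0.05, SE 0.09), Chac1 (-0.20, SE 0.09) and Trib3 (-0.10, SE 0.07) were not called. Heat shock genes gave 1 call, Hspb1 (0.18), of 29, and none of 32 proteasome, 51 nuclear-encoded respiratory chain, 7 mitochondrially encoded, 21 interferon response, 44 DNA replication or 44 mitosis genes was called.

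Lists of embryonic cell state held both called and uncalled members. Pou5f1 held 1654, 1593 and 1563 CPM after Nmd3 siRNA, against 1631 and 1564 CPM after scramble siRNA, and Sox2 (-0.04), Nanog (0.10), Klf4 (0.03) and Esrrb (-0.02) were likewise not called. Of 37 pluripotency genes Tbx3 rose, with 173.9, 168.0 and 169.8 CPM, against 134.3 and 137.3 CPM (0.33, SE 0.05), and Mycn fell (-0.23, SE 0.05). This made 5.41% of that list called, against 1.17% of all genes tested. Of 31 epiblast and early differentiation genes none rose and 3 fell (9.68%, against 0.516% of all genes called lower), with a median of -0.12. Otx2, a factor of the primed epiblast, held 22.6, 22.5 and 24.4 CPM, against 31.9 and 32.0 CPM after scramble siRNA (-0.46, SE 0.09), and the de novo DNA methyltransferases Dnmt3a (-0.25) and Dnmt3b (-0.18) fell. Otx2 and Dnmt3a have antisense neighbours, and of the other genes given here Bmp4, Tbx3, Lef1, Plet1, Lyn, Dennd1a, Antxr1, Hexa, Ctsa, Lamp1, Cd81, Cd9, Plk3, Rpl5, Rpl22l1, Rpl31, Eif6, Cdkn1a, Ddit3, Pou5f1 and Meg3, among others, are also annotated with a gene on the opposite strand. Summed over the 35 listed epiblast genes, CPM without TMM scaling was 913.1 to 929.0 after Nmd3 siRNA and 1009 to 1034 after scramble siRNA. Much of this difference lay in Dnmt3a (TMM-scaled means of 165.3 and 196.4 CPM) and Dnmt3b (256.5 and 291.2 CPM). Of the 31 tested epiblast genes 13 had a change above 0.

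In Nodal, BMP and Wnt signalling 2 of 51 genes rose and 1 fell (5.88% called, against 1.17% of all genes tested). The ligand Bmp4 held 67.0, 62.3 and 67.2 CPM after Nmd3 siRNA, against 49.5 and 47.7 CPM after scramble siRNA (0.43, SE 0.07, edgeR adjusted p = 0.000789). Sfrp1, a secreted inhibitor of Wnt, rose by 0.29. Lef1, a nuclear effector of Wnt signalling, held 64.1, 61.3 and 65.2 CPM, against 93.8 and 83.6 CPM (-0.48, SE 0.06, edgeR adjusted p = 0.000102), and fell by the same 0.48 in whole-cell RNA. The Gnl3 siRNA libraries held 61.0, 57.9 and 62.0 CPM of Lef1, and the Nmd3 siRNA libraries were not different from them by the test (0.08, adjusted p = 0.62). Otx2 showed the same order, with 22.8, 21.8 and 21.5 CPM after Gnl3 siRNA.

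Some markers of other cell types moved with the groups. Vim, which stem cells also express, rose among 12 tested fibroblast and feeder genes (298.4, 307.6 and 299.3 CPM, against 247.5 and 257.1 CPM after scramble siRNA). Without TMM scaling, as in all sums here, the sum of the 21 listed fibroblast markers was 460.2 to 471.4 CPM after Nmd3 siRNA. It was 406.5 to 416.1 CPM after scramble siRNA, and Lum and Fap were at 0 in all 5 libraries. Vim, with TMM-scaled means of 301.8 and 252.3 CPM in these groups, made up most of this sum and of its difference. Sparc was the 1 called gene of 24 tested primitive and visceral endoderm genes (0.21). The sum of that list was 708.2 to 840.9 CPM after Nmd3 siRNA and 656.8 to 666.5 CPM after scramble siRNA. Sparc, with TMM-scaled means of 472.4 and 408.1 CPM, made up the larger part of it. Tek was the 1 called gene of 14 tested endothelial and blood genes, whose sum was 132.6 to 161.1 CPM after Nmd3 siRNA and 118.3 to 122.4 CPM after scramble siRNA, with Emcn, Fli1 and Hbb-bh1 at 0. None of 16 genes of the 2-cell-like state was called. The part of such cells in the results was not tested, and in bulk RNA fewer cells of a type and less RNA per cell cannot be told apart.

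Of the 206 called genes 194 are protein coding. Of 16 tested hosts of small nucleolar RNAs, Zfas1 (78.0, 73.4 and 78.2 CPM, against 87.7 and 93.9 CPM after scramble siRNA, change -0.25) and Snhg5 (-0.24) fell, and the list median was -0.12. These 2 hosts were 12.5% of those tested, against 1.17% called over all genes tested. Zfas1 lies opposite Znfx1. Of 16 nuclear long noncoding RNAs Meg3 fell (change -0.38, SE 0.09). No Nmd3 siRNA library lay above 48.5 CPM. Scramble replicate 2 lay close to that value, at 53 CPM, and scramble replicate 3 stood at 64.4 CPM.

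In whole-cell RNA the same siRNA gave 29 called genes of 17490 tested (0.166%), 11 higher and 18 lower, in 2 Nmd3 siRNA and 3 scramble libraries. The labels exclude Nmd3 siRNA whole-cell replicate 2 as an outlier. The whole-cell count ranged from 8 to 1024 when 1 library was left out, the highest without Nmd3 siRNA replicate 3, and was 0 with the excluded libraries kept, so the overlaps given next rest on an unstable count. Both fractions come from the same lysates, so the overlap is between related samples. Of the genes called on ER ribosomes, 18 were also called in whole-cell RNA, all 18 in the same direction. They made up 62.1% of the whole-cell calls and 8.74% of the ER calls. Besides Nmd3 they included Mroh1, Prkar2a, Impact, Lef1, Cd24a, Mt1, Mt2, Nop16 and Cmtm6. Of the 115 genes higher on ER ribosomes 102 (88.7%) had a whole-cell change above 0, with a median of 0.16, against 0.34 on ER ribosomes. Of the 90 lower genes tested in whole-cell RNA 79 (87.8%) had a change below 0, with a median of -0.20, against -0.34 on ER ribosomes. Over the 16973 genes tested in both, 57.6% had the same sign. The genes were chosen for their change on ER ribosomes, which by itself makes the ER value the larger one.

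The test of the difference between the fractions, in 15 libraries and 18271 genes, called 0 genes (0%), while 1078 had an unadjusted p under 0.05 and DESeq2 called 2. Without a low-count filter 14 were called, and without Nmd3 siRNA whole-cell replicate 3 the count was 304, of which 216 were higher and 88 lower on ER ribosomes relative to whole-cell RNA. In simulated data this test recovered 48% of differences of 0.5 on the log2 scale and 96% of differences of 1. Every gene was simulated with the same spread, unlike in the real libraries, and smaller differences were not simulated. Named genes whose fractions stood far apart were Adamts10 (-0.61 on ER ribosomes and 0.13 in whole-cell RNA) and Dennd1a (0.54 on ER ribosomes and -0.21 in whole-cell RNA). For each, edgeR's test of the difference gave an adjusted p of 0.54.

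The direct comparison of Nmd3 with Gnl3 siRNA on ER ribosomes, 3 libraries each, called 387 of the 17632 genes (2.19%), 174 higher and 213 lower after Nmd3 siRNA. With scaling by library totals alone the split was 145 higher and 272 lower. The targeted genes differed as the labels state. The log2 difference was -2.27 for Nmd3 and 2.81 for Gnl3, with 164.2, 269.5 and 179.2 CPM after Nmd3 siRNA, against 31.4, 26.7 and 29.6 CPM after Gnl3 siRNA. Impact, Prkar2a, Mroh1, Mrpl36, Cd24a and Stmn1 were lower after Nmd3 siRNA in this comparison also, and Slc39a4 (0.39), Tbx3 (0.36) and Spp1 (0.31) were higher. Nanog, not called against scramble, was higher than after Gnl3 siRNA (653.2, 601.0 and 646.0 CPM, against 481.6, 508.7 and 508.6 CPM, difference 0.34, edgeR adjusted p = 4.7e-06). Vim, Hspb1, Insig1, Msmo1, Lef1, Otx2, Mt1 and Mt2 were not called between the siRNAs. Both comparisons share the Nmd3 siRNA libraries and are given side by side for that reason.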

How the data were processed

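Per the labels' protocols, directional libraries were made from the polyA RNA of ER-marked ribosomes and of whole lysate. Each deposited file holds 1 library as unnormalized counts for each gene. The submitters' processing notes name HTSeq 0.11.2, STAR 2.7.9a, build GRCm39 and DESeq2, while the annotation release and strand setting are not given in the sources used here. The 5 HTSeq lines that name no gene were left out (no feature 47.4% to 47.6% of the 5 libraries). Symbols were found for 52135 of 55416 gene IDs in GENCODE M21 and NCBI tables, and genes on opposite strands were taken from that annotation.

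Groups were compared in R 4.3.3 with edgeR 4.0.16 (filterByExpr, TMM scaling, robust quasi-likelihood fit, no replicate block) on the 8 ER libraries, the 7 whole-cell libraries that the labels do not exclude, or all 15 for the difference between fractions. SE was derived from the log2 fold change and the F statistic. Adjustment was by Benjamini-Hochberg, over every gene in the fit. On simulated data the ER comparison recovered 82 of 100 genes changed by 0.5 on the log2 scale and 100 of 100 changed by 1, with 10 false calls among 192. Every gene was simulated with the same spread, unlike in the real libraries. Smaller changes, such as the median of 0.34 among called genes, were not simulated. The simulated figures therefore do not give the recovery or the share of false calls in the real libraries. Replicates are called biological by the labels, and nothing more is said of their origin, so p-values measure the spread between these samples. Levels are TMM-scaled CPM, and ER enrichment used CPM plus 0.5, chosen after seeing the data.

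Named genes are Nmd3, the 15 largest changes in each direction among genes called with and without Nmd3 siRNA replicate 2, at a mean of at least 5 CPM and without overlap of the groups, up to 5 called members per direction of each of 34 gene lists, and fixed regulators. Mt1, Mt2, Gm45774, Stmn1, Mlf2 and other genes named beside them were chosen after their values were seen. The members, lists and rule were chosen with earlier results of these data known. Alternatives were DESeq2 1.42.0, other scalings, no low-count filter, a replicate block, a fit without robust estimation, fits of the compared groups alone, the excluded libraries kept, and leaving out each library. Promoter sequences are from RefSeq (GRCm38.p6), which held an entry for 161 of the 206 called genes. Some genes are not reported here. No figure or text gives coordinates of counted genes, since the builds differ.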

Additional observations from a re-analysis of the deposited data

How the results depend on the processing

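The 206 calls on ER ribosomes became 407 with no low-count filter, 98 without robust estimation and 86 with only Nmd3 siRNA and scramble libraries in the fit, and between 23 and 366 when 1 library was left out (the lowest without scramble replicate 3, the highest without Nmd3 siRNA replicate 2). DESeq2 called 190. With the replicate block 126 genes were called. Deviations from the group means of same-numbered libraries correlated at 0.00 across genes in both pairs of Nmd3 siRNA and scramble ER libraries. The values were -0.01, -0.05 and -0.04 for Nmd3 with Gnl3 siRNA, and 0.00 and 0.05 for Nmd3 siRNA with scramble in whole-cell RNA. Deviations of 2 scramble libraries mirror each other, so these values do not decide whether the numbers pair the samples. The block also gave 280 calls against Gnl3 siRNA, 29 in whole-cell RNA and 0 for the difference between fractions. The 387 calls of Nmd3 against Gnl3 siRNA became 586 with no low-count filter and 159 to 703 with 1 library left out. The 29 whole-cell calls became 115 with no low-count filter, 16 without robust estimation, 0 with the 2 excluded libraries kept (393 at an unadjusted p under 0.05), and 8 to 1024 with 1 library left out, the highest without Nmd3 siRNA replicate 3. The 0 calls of the difference between fractions became 2 with DESeq2, 1 with library totals, 14 with no low-count filter, and 0 to 304 with 1 library left out, the highest again without Nmd3 siRNA whole-cell replicate 3. Of the members of the lists 44 were called, 83 with no low-count filter, 25 without robust estimation, 23 with only the 2 groups, 35 with the block and 7 to 79 with 1 library left out. The cause of these shifts was not tested.

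None of the 70 called named genes reversed, while uncalled ones such as Gnl3 changed sign. Of the 70, 15 kept the call without scramble replicate 2, 12 without scramble replicate 3, and 70 without Nmd3 siRNA replicate 2. The 15 largest changes in each direction were chosen among genes called without Nmd3 siRNA replicate 2, so their part of that 70 was fixed by the choice. Of all 206 called genes 197 were also called without that replicate. Depth was not varied.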

Other observations

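Some called genes belong to no paragraph above. Fth1, the ferritin heavy chain, held 407.7, 365.4 and 378.0 CPM after Nmd3 siRNA, against 471.5 and 447.0 CPM after scramble siRNA (-0.26, SE 0.05), Gpx4, which reduces lipid peroxides, changed by -0.16, Txnrd1, thioredoxin reductase, by -0.19 and Prdx3, a mitochondrial peroxiredoxin, by -0.36. Prdx6, another peroxiredoxin, rose (0.21). Stmn1, which destabilises microtubules, held 272.5, 259.4 and 251.0 CPM, against 353.1 and 328.8 CPM (-0.39, SE 0.05). The cyclin Ccnd1 (-0.24), Eif4ebp2, an inhibitor of cap binding (-0.19), and Larp1, which binds mRNAs of ribosomal proteins (-0.17), also fell.

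Called increases not described above included Mfge8, a milk fat globule protein (202.7, 231.5 and 190.3 CPM after Nmd3 siRNA, against 155.4 and 159.2 CPM after scramble siRNA, change 0.40), Laptm5, a lysosomal membrane protein (0.48), Tfpi, an inhibitor of coagulation (0.44), Anpep, a surface peptidase (0.47), Icam1, an adhesion receptor (0.27), and Pdgfa, a growth factor (0.32). Ckb, a cytosolic creatine kinase, rose on ER ribosomes (0.35) and in whole-cell RNA (0.32), and Mthfd1, a folate enzyme, rose by 0.39. All of these genes were picked after their values had been seen.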
